A study of Mus musculus with 9 samples.

Results

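Interferon-stimulated effector genes are the genes whose products carry out the antiviral programme that interferons switch on. A list of 39 such genes was taken from the deposited count table by gene name, with the transcript suffix of the name removed. All 39 had a row, each a single row, among 20627 features. RNA selected with oligo(dT) had been sequenced from the mouse line RAW264.7, whose cells resemble macrophages and came from a tumour induced by Abelson murine leukaemia virus, in 9 libraries. The labels form 3 groups of 3 libraries. NC is taken here as the control, HG had 35 mmol/l glucose in its medium over 6 h, and HG-SIG had that same glucose together with sitagliptin phosphate over 6 h. Sitagliptin is an inhibitor of dipeptidyl peptidase 4 used against type 2 diabetes. The sources used here give neither the glucose concentration and duration of NC nor the dose of sitagliptin, and the groups include neither an osmotic control nor sitagliptin without added glucose. Nothing in the labels says that replicates were separate cultures, so the p-values rest on a spread between libraries that may be technical.

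Type I interferons bind a receptor made of Ifnar1 and Ifnar2, whose kinases Jak1 and Tyk2 activate the complex ISGF3. This complex contains Stat2 and Irf9 and binds the interferon-stimulated response element (ISRE) in the promoters of effector genes. Interferon gamma acts through its own receptor, and promoters that answer to it carry the gamma-activated site (GAS). Macrophages keep many effector genes at a basal level without infection, and their RNA sensors start the production of interferon.

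The promoters of 4 members are printed because they show these elements in genes that stood at different places in the response: Isg15 had the lowest log2 fold change of HG against NC, Ifit3 the lowest of HG-SIG against HG, Gbp7 rose in HG-SIG against HG, and Igtp belongs to the immunity-related GTPases. Each is the window from 250 bases before to 50 bases after the annotated start (RefSeq, GRCm38.p6), and lies at chr4:156200769-156201068 on the minus strand, chr19:34583279-34583578 and chr3:142530086-142530385 on the plus strand, and chr11:58199306-58199605 on the plus strand. Capitals mark matches, on either strand, of an ISRE core, GAAANNGAAA, and of GAS, TTCNNNGAA; core matches that overlap each other run together as 1 stretch of capitals.
Isg15: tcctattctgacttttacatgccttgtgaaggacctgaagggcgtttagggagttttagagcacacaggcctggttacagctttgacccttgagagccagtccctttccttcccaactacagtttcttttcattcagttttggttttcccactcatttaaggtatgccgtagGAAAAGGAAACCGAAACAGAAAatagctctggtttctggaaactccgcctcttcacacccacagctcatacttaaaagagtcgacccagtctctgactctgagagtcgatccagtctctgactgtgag
Ifit3: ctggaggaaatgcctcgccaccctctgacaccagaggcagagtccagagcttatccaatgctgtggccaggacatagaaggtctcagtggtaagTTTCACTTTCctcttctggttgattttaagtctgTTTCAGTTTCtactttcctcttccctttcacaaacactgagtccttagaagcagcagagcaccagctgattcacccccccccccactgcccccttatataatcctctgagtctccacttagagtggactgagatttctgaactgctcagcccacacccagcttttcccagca
Gbp7: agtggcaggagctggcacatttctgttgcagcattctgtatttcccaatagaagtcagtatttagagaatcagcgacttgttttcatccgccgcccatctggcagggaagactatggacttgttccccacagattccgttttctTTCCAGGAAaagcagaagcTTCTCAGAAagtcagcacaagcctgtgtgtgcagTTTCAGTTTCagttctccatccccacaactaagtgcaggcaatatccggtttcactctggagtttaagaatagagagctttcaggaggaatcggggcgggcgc
Igtp: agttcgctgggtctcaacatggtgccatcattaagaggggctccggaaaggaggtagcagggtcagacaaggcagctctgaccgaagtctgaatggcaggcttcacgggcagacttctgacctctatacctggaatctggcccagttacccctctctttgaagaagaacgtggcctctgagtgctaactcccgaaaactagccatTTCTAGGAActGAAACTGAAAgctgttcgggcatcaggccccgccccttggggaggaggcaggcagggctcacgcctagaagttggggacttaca
Isg15 had 3 overlapping ISRE cores in 1 run, the first starting 78 bases before the annotated start. Ifit3 had 2 separate cores, Gbp7 had 1 core and 2 GAS matches, and Igtp 1 of each, with the GAS match 45 bases before the start.

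Promoter windows were matched by symbol for 30 of the 39 members, all but Dhx58, Mx1, Mx2, Oas2, Parp14, Parp9, Rtp4, Usp18 and Zbp1. An ISRE core was present in 17 of the 30 (56.7%), against 3.99% of all 27025 genes with a window in the same table. GAS was present in 8 of the 30 (26.7%), against 9.55% of all genes. In the windows of Oas1a, Irgm1, Bst2 and Isg15 neighbouring cores overlapped, and in that of Bst2 the GAS match overlapped a core as well; the other members had separate matches. No core was found with these letters in the windows of Ifit2, Oasl1, Oasl2, Ifi44, Ifi47, Ifi35, Xaf1, Cmpk2, Parp12, Dtx3l, Herc6, Trim25 and Samhd1. The median log2 fold change of HG against NC was -0.91 over the 17 members with a core and -0.62 over these 13. For HG-SIG against HG the medians were -0.30 and -0.49. Both orders are descriptions without a test.

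**Figure D1:**
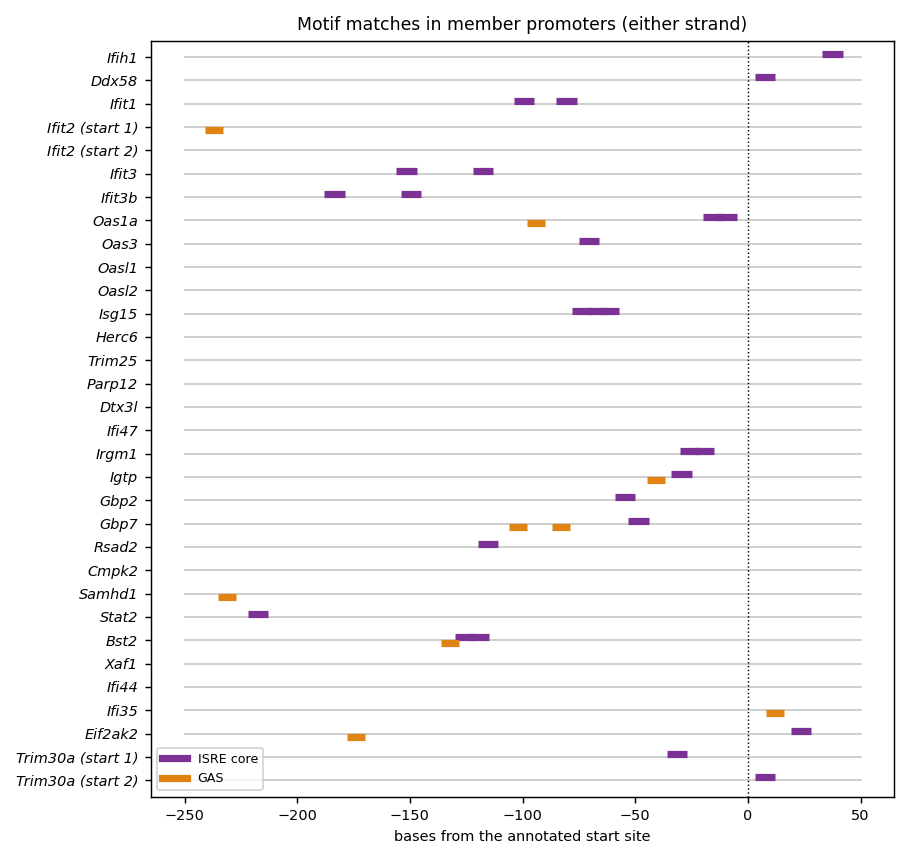
Matches of the ISRE core (purple) and of GAS (orange) in the promoter windows of 30 members, drawn in bases from the annotated start site; Ifit2 and Trim30a have 2 annotated starts. Cores lie in 17 of the 30 members, most of them upstream of the start, while Ddx58, Ifih1, Eif2ak2 and 1 of the 2 starts of Trim30a have theirs downstream of it.

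Library totals ranged from 23285821 to 31571578 counts, so that 3 counts, the limit that a count of 0 allows, corresponded to 0.0895 to 0.132 CPM (counts scaled by library total and TMM factor); this floor covers counting error only. HG replicate 3 stood apart from the others of its group, at 8.38 to 9.19 chi-square units per gene against 3.53 between HG replicates 1 and 2. Of 9 macrophage markers 8 passed the filter on low counts, and the summed level of the list was 10856 to 11322 CPM in NC, 9772 to 10555 CPM in HG and 5035 to 5138 CPM in HG-SIG. In HG against NC 4 of the 8 were called lower and 2 higher, Csf1r and Fcgr1, against 15.2% and 14.3% of all genes. All 8 were called lower in HG-SIG against HG, where 26.8% of all genes were. The part of this shift in the results below was not tested. In bulk RNA, fewer cells of a type and less RNA per cell cannot be told apart. Markers of B cells, fibroblasts, neutrophils, epithelium and endothelium, each list by itself, summed to at most 0.330 CPM in any library. Of 8 T and NK cell markers 3 were in the table (2.07 to 3.22 CPM in sum, nearly all Lck, with Cd8a at 0 in all libraries but 1). The 5 markers of plasmacytoid dendritic cells, which make much interferon, summed to 95.9 to 98.1 CPM in NC, 103 to 112 CPM in HG and 76.6 to 83.6 CPM in HG-SIG, nearly all of it Tcf4; Siglech, the defining one, had no count in NC and at most 1 count in a library elsewhere.

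Antiviral effector genes stood lower in HG than in NC and lower again in HG-SIG. The 39 members together made up 2063 ± 11.1 CPM in NC, 1391 ± 77.0 CPM in HG and 1033 ± 16.3 CPM in HG-SIG (SD, n = 3). Of the members 38 passed the filter, all but Mx1. In HG against NC, 34 of these 38 fell, 1 rose and 3 were not called, where 15.2% of all 13311 genes tested fell and 14.3% rose; a gene was called at an adjusted p under 0.05 in edgeR's quasi-likelihood test, which gives every adjusted p below. Their median log2 fold change was -0.84, against 0.00 over all genes tested, and 13 of them fell by more than 1 on the log2 scale (2.22% of all genes), the scale of every change below. The libraries of HG lay entirely below those of NC for 37 of the 38 (20.8% of all genes) and entirely above for Samhd1 (20.8%).

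In HG-SIG against HG, 29 of the 38 fell, 3 rose and 6 were not called, where 26.8% of all genes fell and 25.7% rose. The median was -0.45 against 0.01 over all genes tested, and 8 members fell by more than 1 (3.14% of all genes) and 0 rose by more than 1 (2.16%). The libraries of HG-SIG lay entirely below those of HG for 28 (28.8% of all genes) and entirely above for 3 (29.9%). Scaled by library size alone instead of TMM, the median of all genes moved to 0.17 and that of the members to -0.29. With that scaling 21 members fell and 5 rose, where 1826 of all 13311 genes fell and 6093 rose. With limma on log2(TPM + 1), the kind of value the series describes testing, 21 members fell and 6 rose. There 1467 of 12109 genes fell and 6624 rose, and the median was -0.21 against 0.19 over all genes.

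In HG-SIG against NC, 35 fell, 1 rose and 2 were not called, against 28.7% of all genes that fell and 29.9% that rose (58.6% in all). The median was -1.24 against 0.02, and 25 of the 38 fell by more than 1 (5.60% of all genes), with 0 that rose by as much (2.91%). Each pair of comparisons shares a group of libraries, so their values are set side by side and are not independent. Gbp2 passed the filter through its NC libraries alone, and without it 33, 29 and 34 members fell in the 3 comparisons. Without HG replicate 3, 35, 28 and 35 fell and 1, 4 and 1 rose.

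**Figure D2:**
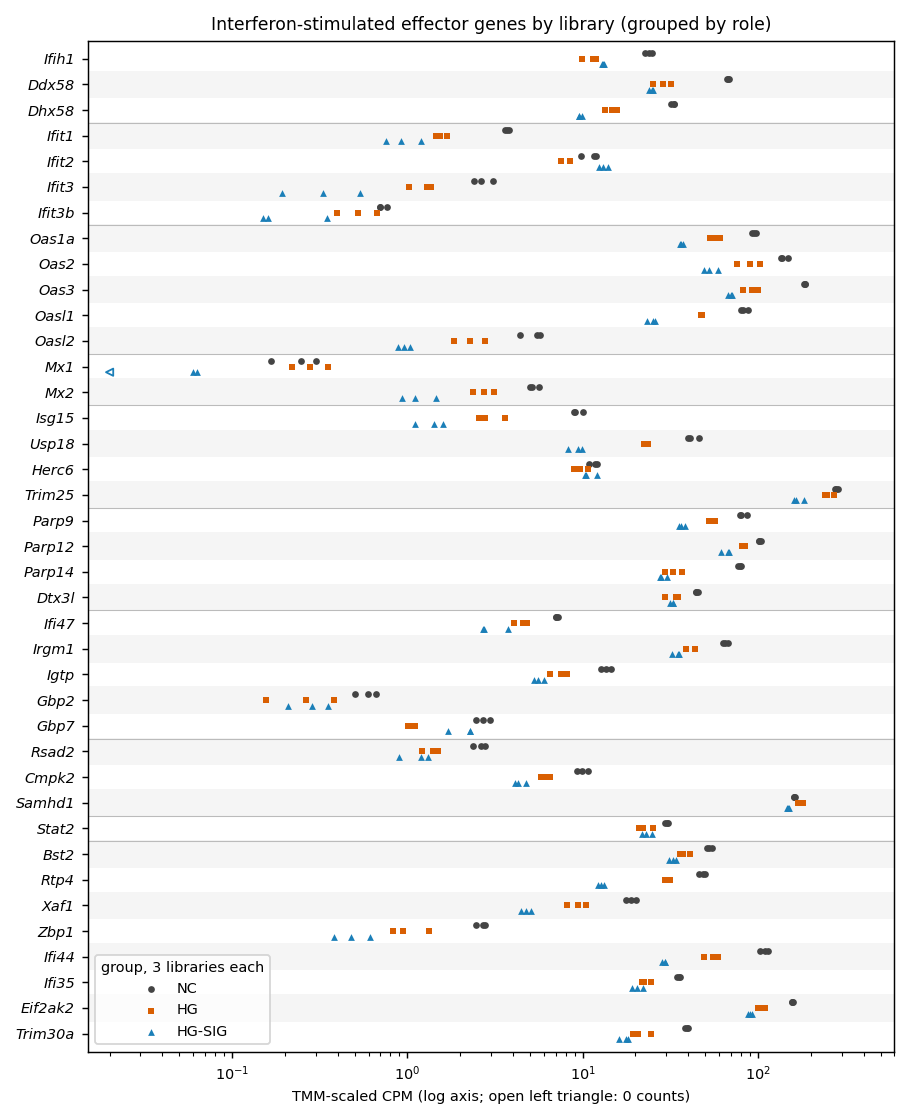
TMM-scaled CPM (log axis) of each of the 39 members in each of the 9 libraries, by role; the open triangle marks a library with 0 counts. For most members the NC libraries lie to the right, HG between and HG-SIG to the left. Ifit2, Gbp7, Ifih1, Herc6 and Samhd1 follow other orders. HG and HG-SIG overlap for Stat2, Dtx3l, Parp14, Gbp2, Rsad2 and Ifi35, and NC and HG overlap for Mx1.

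**Figure D3:**
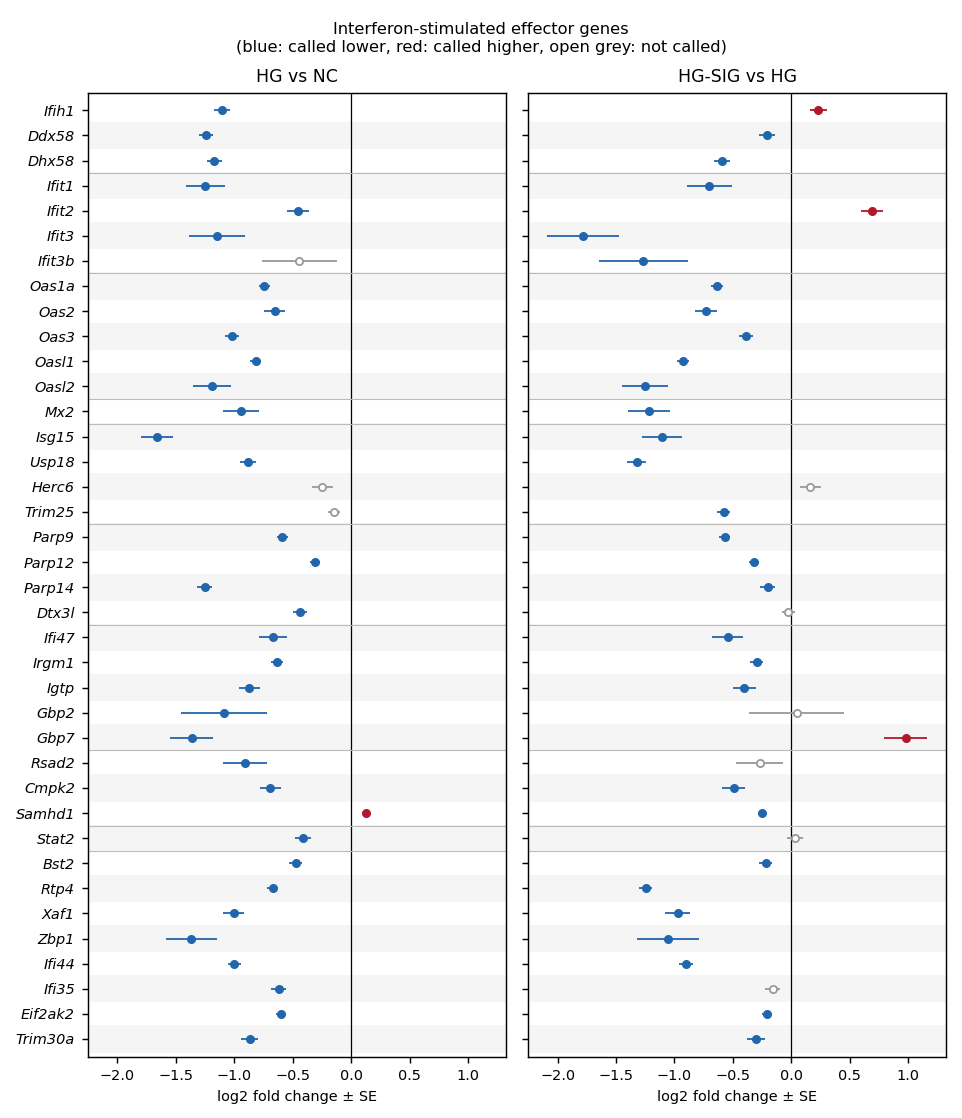
Log2 fold changes with their standard errors for the 38 tested members, between HG and NC (left) and between HG-SIG and HG (right); blue was called lower, red called higher, open grey not called. Samhd1 alone is red in the first comparison, and Ifih1, Ifit2 and Gbp7 are red in the second.

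The 3 RNA sensors all fell in HG, where 15.2% of all genes fell. Ddx58, better known as RIG-I, recognises short double-stranded RNA with a triphosphate at its end, and stood at 67.5, 66.3 and 68.3 CPM in NC, 28.7, 25.3 and 31.7 CPM in HG, and 25.0, 23.9 and 25.1 CPM in HG-SIG. NC lay far above both other groups, and HG-SIG lay just below HG without overlap. The log2 fold change was -1.24 ± 0.06 (adjusted p = 1.5e-08) for HG against NC and -0.21 ± 0.07 (adjusted p = 0.0189) for HG-SIG against HG (± SE); the second was -0.05 with library size alone (adjusted p = 0.573) and -0.13 to -0.20 without HG replicate 1, HG replicate 3 or HG-SIG replicate 2 (adjusted p 0.0510 to 0.0800). Ifih1, or MDA5, senses long double-stranded RNA, and stood at 24.8, 22.8 and 23.9 CPM in NC, 11.4, 9.97 and 11.9 CPM in HG, and 12.8, 13.2 and 13.0 CPM in HG-SIG. Its HG-SIG libraries were all above those of HG and all below those of NC: it fell by 1.11 ± 0.07 (adjusted p = 1.2e-07) in the first comparison and rose by 0.23 ± 0.07 (adjusted p = 0.0175) in the second, a call that was lost without HG replicate 2 (0.16, adjusted p = 0.0852). Dhx58, or LGP2, lacks the signalling domains of the other sensors and modulates them. It stood at 33.1, 32.0 and 33.3 CPM in NC, 14.8, 13.4 and 15.7 CPM in HG, and 9.53, 9.54 and 9.96 CPM in HG-SIG, an order without overlap at either step. Its log2 fold changes were -1.17 ± 0.06 (adjusted p = 2.2e-08) and -0.59 ± 0.07 (adjusted p = 1.4e-05).

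The IFIT genes, whose proteins bind viral RNA, lie together on chromosome 19 (GENCODE M21, GRCm38, the assembly of mm10), in the order Ifit2 (34550694 to 34576419), Ifit3 (34583531 to 34588731), Ifit3b (34607970 to 34613401) and Ifit1 (34640871 to 34650009), all on the plus strand. Ifit2 (ENSMUSG00000045932) stood at 12.0, 9.74 and 11.6 CPM in NC, 8.46, 7.49 and 8.45 CPM in HG, and 13.9, 13.1 and 12.4 CPM in HG-SIG. HG lay below NC and HG-SIG above both, and Ifit2 fell by 0.46 ± 0.09 (adjusted p = 0.00257) in HG against NC and rose by 0.69 ± 0.09 (adjusted p = 4.3e-05) in HG-SIG against HG. The rise of HG-SIG over NC was 0.23 (0.0323) and did not pass in DESeq2 (0.0800) or without NC replicate 2, HG-SIG replicate 1 or HG-SIG replicate 2 (0.0657 to 0.134).

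Ifit1, which binds viral RNA whose cap lacks methylation, was scarce, at 3.72, 3.59 and 3.78 CPM in NC, 1.67, 1.53 and 1.45 CPM in HG, and 0.757, 1.19 and 0.925 CPM in HG-SIG. It was lower at both steps without overlap, with log2 fold changes of -1.25 ± 0.17 (adjusted p = 9.6e-05) and -0.70 ± 0.19 (adjusted p = 0.00830). Ifit3 stood at 3.09, 2.39 and 2.64 CPM in NC, 1.29, 1.02 and 1.36 CPM in HG, and 0.536, 0.193 and 0.328 CPM in HG-SIG. It had the lowest log2 fold changes of any member in HG-SIG against HG, -1.78 ± 0.31 (adjusted p = 4.0e-04), and in HG-SIG against NC, -2.93 ± 0.28 (adjusted p = 1.7e-06), from totals of 230, 94 and 34 counts in the groups in order. The ratio of HG over HG-SIG was 3.46, with an exact 95% counting interval of 2.32 to 5.29. Ifit3b, a near-identical copy of Ifit3 with which it may share reads, totalled 61, 41 and 21 counts. It fell by 1.27 ± 0.38 (adjusted p = 0.0140) in HG-SIG against HG; this call was lost without HG replicate 2, HG-SIG replicate 2 or HG-SIG replicate 3 (adjusted p 0.0551 to 0.0659). Its value for HG against NC, -0.44 ± 0.32 (adjusted p = 0.341), did not pass.

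Ratios of counts within a library do not depend on how libraries are scaled. For Ifit2 over Ifit1, NC libraries had ratios of 3.22, 2.71 and 3.07, HG libraries 5.06, 4.90 and 5.82, and HG-SIG libraries 18.4, 11.0 and 13.4. The 3 groups did not overlap, so these neighbouring genes changed unequally at both steps. This ratio and those of the pairs below were chosen after the values were seen and carry no test.

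**Figure D4:**
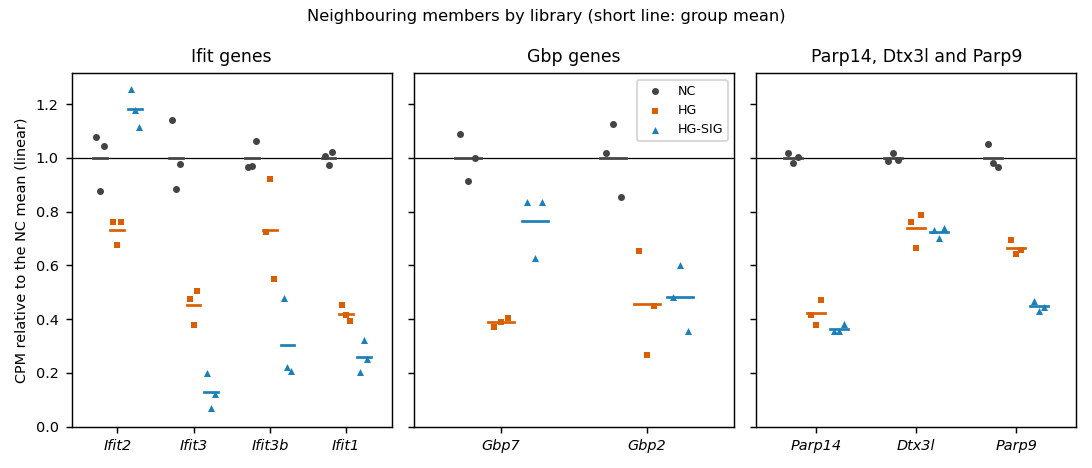
CPM relative to the NC mean of the gene (linear axis) in each library for members that neighbour each other, with group means as short lines. Ifit2 and Gbp7 are higher in HG-SIG than in HG, while Ifit3, Ifit3b and Ifit1 are lower, and Dtx3l, not called at the second step, stands beside Parp9, which fell.

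The OAS family includes enzymes that make 2'-5' linked oligoadenylates, which activate the ribonuclease RNase L. All 5 listed genes of the family fell at both steps, against 15.2% of all genes at the first and 26.8% at the second. Oas3 (ENSMUSG00000032661) stood at 183, 185 and 186 CPM in NC, 92.7, 81.6 and 99.8 CPM in HG, and 70.3, 67.7 and 70.9 CPM in HG-SIG. Its groups did not overlap, and it fell by 1.02 ± 0.06 (adjusted p = 3.6e-08) and then fell by 0.39 ± 0.06 (adjusted p = 1.2e-04). Oas2, its neighbour on chromosome 5 at a distance of 3244 bases, stood at 136, 134 and 149 CPM in NC, 89.7, 75.4 and 102 CPM in HG, and 52.5, 49.1 and 59.1 CPM in HG-SIG and fell by 0.65 ± 0.09 (adjusted p = 1.5e-04) and then fell by 0.73 ± 0.10 (adjusted p = 4.0e-05). HG replicate 3 was the highest of the HG libraries for both genes. Oas1a, one of several Oas1 copies that may share reads, stood at 94.9, 97.3 and 92.8 CPM in NC, 60.6, 53.2 and 56.1 CPM in HG, and 36.2, 35.9 and 37.3 CPM in HG-SIG. It fell by 0.74 ± 0.05 (adjusted p = 1.1e-07) and then fell by 0.64 ± 0.05 (adjusted p = 4.0e-07), nearly equal steps.

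Oasl1, which in mouse represses the translation of Irf7, stood at 79.6, 87.7 and 82.7 CPM in NC, 47.2, 47.0 and 47.6 CPM in HG, and 25.9, 23.3 and 25.3 CPM in HG-SIG, with little spread in any group. It fell by 0.82 ± 0.05 (adjusted p = 5.4e-08) and then fell by 0.93 ± 0.05 (adjusted p = 1.7e-08). Oasl2, 11005 bases away on the same strand, was a scarce transcript at 5.51, 4.38 and 5.69 CPM in NC, 2.26, 1.84 and 2.77 CPM in HG, and 0.884, 1.03 and 0.954 CPM in HG-SIG. It fell by 1.19 ± 0.16 (adjusted p = 1.1e-04) and then fell by 1.25 ± 0.20 (adjusted p = 1.9e-04), the widest second step in the family. The Mx GTPases assemble on viral nucleocapsids, and many inbred strains carry defective alleles. Mx2 stood at 4.98, 5.12 and 5.65 CPM in NC, 2.37, 2.75 and 3.12 CPM in HG, and 1.10, 0.931 and 1.46 CPM in HG-SIG and fell by 0.94 ± 0.15 (adjusted p = 4.6e-04) and then fell by 1.22 ± 0.18 (adjusted p = 1.2e-04). Mx1, on the same chromosome at a distance of 72400 bases, totalled 20, 22 and 4 counts in the groups in order and was not tested. The ratio of HG over HG-SIG was 6.89 with a counting interval of 2.34 to 27.5, and that of HG over NC was 1.20 (0.627 to 2.33).

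The ISG15 system attaches a ubiquitin-like protein to others. Isg15 (ENSMUSG00000035692, chromosome 4, 156199424 to 156200818, minus strand), the modifier itself, stood at 10.1, 8.92 and 9.06 CPM in NC, 2.79, 2.55 and 3.61 CPM in HG, and 1.42, 1.61 and 1.10 CPM in HG-SIG. NC lay above HG, and HG above HG-SIG, with no overlap. Its log2 fold change of -1.66 ± 0.14 (adjusted p = 1.3e-06) in HG against NC was the lowest of all members, and -1.11 ± 0.17 (adjusted p = 1.7e-04) followed in HG-SIG against HG. Usp18 removes ISG15 from proteins and also dampens the type I interferon receptor. It stood at 40.1, 45.9 and 41.1 CPM in NC, 23.0, 22.4 and 23.6 CPM in HG, and 9.91, 8.19 and 9.43 CPM in HG-SIG and fell by 0.88 ± 0.07 (adjusted p = 8.3e-07) and then fell by 1.32 ± 0.08 (adjusted p = 3.3e-08). Over Stat2, which it accompanies at the receptor, its count ratios were 1.31, 1.55 and 1.35 for NC libraries, 1.04, 1.07 and 0.940 for those of HG, then 0.400, 0.356 and 0.435 for HG-SIG, again without overlap.

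Of the ligases of the system, Herc6, the main ISG15 ligase of mouse, stood at 12.0, 10.9 and 11.8 CPM in NC, 8.95, 9.65 and 10.8 CPM in HG, and 10.4, 10.3 and 12.0 CPM in HG-SIG. It was not called in any comparison, at -0.25 ± 0.09 (adjusted p = 0.0553), 0.16 ± 0.09 (adjusted p = 0.144) and -0.08 ± 0.09 (adjusted p = 0.424); scaled by library size alone the second was 0.32 (adjusted p = 0.00836) and the third had the opposite sign, 0.11, and without HG replicate 3 the first was -0.32 (adjusted p = 0.0184) and the second 0.24 (0.0432). The first also passed without HG-SIG replicate 3 (-0.25, adjusted p = 0.0420) and with the 10 CPM filter (0.0415), and the second with limma on log2(TPM + 1) (0.29, 0.0124). Another gene on the same strand overlaps 13.7% of its exonic length, so some reads may be shared. Trim25, a ubiquitin ligase that acts on RIG-I, stood at 276, 279 and 287 CPM in NC, 248, 242 and 271 CPM in HG, and 164, 161 and 184 CPM in HG-SIG. It fell in HG-SIG against HG (-0.58 ± 0.05, adjusted p = 2.5e-06). HG against NC gave -0.15 ± 0.05 (adjusted p = 0.0601), and passed without HG replicate 3 (-0.20, adjusted p = 0.00973) or HG-SIG replicate 3 (-0.15, 0.0287). It also passed in DESeq2 (0.0327), with no filter (0.0370), with the 10 CPM filter (0.0461), with 2 groups in the fit (0.0401) and with the replicate block (0.00448).

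Of the ADP-ribosyltransferase genes, Parp14 stood at 79.6, 76.7 and 78.6 CPM in NC, 32.6, 29.5 and 36.8 CPM in HG, and 27.9, 27.8 and 30.1 CPM in HG-SIG. It fell by 1.25 ± 0.06 (adjusted p = 1.6e-08) in HG against NC. In HG-SIG against HG it fell again (-0.20 ± 0.07, adjusted p = 0.0230), though its HG-SIG libraries overlapped those of HG. That call was lost with library size alone (-0.04, adjusted p = 0.629) and without HG replicate 3 (-0.12, 0.0952), HG-SIG replicate 1 (0.0753) or HG-SIG replicate 2 (0.0748). Parp9 forms a complex with the ubiquitin ligase Dtx3l. Their genes lie head to head on chromosome 16 with 682 bases in common on opposite strands, so some reads may be shared. Parp9 stood at 86.2, 80.4 and 79.2 CPM in NC, 57.0, 52.7 and 53.8 CPM in HG, and 38.2, 35.2 and 36.6 CPM in HG-SIG and fell by 0.59 ± 0.05 (adjusted p = 1.2e-06) and then fell by 0.57 ± 0.05 (adjusted p = 1.2e-06).

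Dtx3l had 44.5 ± 0.749, 32.9 ± 2.85 and 32.3 ± 0.853 CPM in NC, HG and HG-SIG (SD, n = 3). It fell by 0.44 ± 0.06 (adjusted p = 7.7e-05) in HG, and the second step was -0.03 ± 0.06 (adjusted p = 0.723), or 0.13 with library size alone (adjusted p = 0.0749) and 0.02 without HG replicate 3. The count ratios of Parp9 over Dtx3l were 1.96, 1.77 and 1.79 for NC libraries, 1.68, 1.78 and 1.54 for those of HG, then 1.17, 1.13 and 1.11 for HG-SIG, whose libraries lay below all others. Parp12 fell by 0.31 ± 0.04 (adjusted p = 1.2e-04) and then fell by 0.32 ± 0.04 (adjusted p = 4.5e-05), among the smaller changes in the list.

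Immunity-related GTPases and guanylate-binding proteins act on the vacuoles of intracellular pathogens and answer to interferon gamma in particular. Igtp stood at 12.7, 14.4 and 13.5 CPM in NC, 8.15, 6.51 and 7.48 CPM in HG, and 6.03, 5.52 and 5.25 CPM in HG-SIG and fell by 0.87 ± 0.09 (adjusted p = 1.4e-05) and then fell by 0.40 ± 0.10 (adjusted p = 0.00482). Ifi47 stood at 7.24, 7.06 and 7.06 CPM in NC, 4.80, 4.04 and 4.57 CPM in HG, and 2.75, 3.76 and 2.71 CPM in HG-SIG and fell by 0.67 ± 0.12 (adjusted p = 0.00114) and then fell by 0.55 ± 0.13 (adjusted p = 0.00411). Irgm1, a regulator of the other GTPases, went from 65.3 ± 2.21 to 42.1 ± 2.73 and 34.3 ± 1.60 CPM (SD, n = 3), and fell by 0.63 ± 0.05 (adjusted p = 1.7e-06) and then fell by 0.30 ± 0.05 (adjusted p = 6.4e-04). With library size alone the second steps were -0.24 for Igtp (adjusted p = 0.0576) and -0.14 for Irgm1 (0.0573).

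Gbp7 (ENSMUSG00000040253, chromosome 3, 142530342 to 142550149, plus strand) went the other way with sitagliptin. It stood at 2.95, 2.48 and 2.71 CPM in NC, 1.01, 1.06 and 1.10 CPM in HG, and 2.27, 1.70 and 2.27 CPM in HG-SIG, so that HG-SIG lay between the other groups without overlap. It fell by 1.36 ± 0.18 (adjusted p = 9.2e-05) in HG and rose by 0.98 ± 0.18 (adjusted p = 6.9e-04) in HG-SIG against HG. Its counts totalled 230, 81 and 201 in NC, HG and HG-SIG. Its value for HG-SIG against NC, -0.38 ± 0.16 (adjusted p = 0.0535), did not pass, but did with DESeq2 size factors (0.0478), with limma on log2(CPM + 1) (0.0332) and with the replicate block (0.0478). Its count ratios over Igtp were 0.233, 0.172 and 0.200 for NC libraries, 0.124, 0.163 and 0.147 for those of HG, then 0.377, 0.308 and 0.432 for HG-SIG. Gbp2, 70452 bases away, had 49, 21 and 27 counts in the 3 groups. Its fall in HG, -1.09 ± 0.37 (adjusted p = 0.0413), was lost without any of NC replicates 1 to 3, HG replicates 2 and 3 or HG-SIG replicates 1 and 2 (adjusted p 0.0514 to 0.158), in DESeq2 (0.135), with no filter (0.0799) and with 2 groups in the fit (0.0552). Its fall in HG-SIG against NC was lost without NC replicates 1 or 2 or HG-SIG replicates 1 or 3 (0.0566 to 0.0873), and in DESeq2 (0.0812). HG-SIG against HG gave 0.05 ± 0.41 (adjusted p = 0.947).

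The nucleotide-acting effectors were split. Rsad2, or viperin, makes a chain-terminating analogue of CTP, and Cmpk2, its neighbour on the opposite strand 12751 bases away on chromosome 12, is a mitochondrial nucleotide kinase. Cmpk2 stood at 10.7, 9.87 and 9.33 CPM in NC, 5.81, 6.28 and 6.47 CPM in HG, and 4.77, 4.27 and 4.12 CPM in HG-SIG and fell by 0.69 ± 0.09 (adjusted p = 7.6e-05) and then fell by 0.49 ± 0.10 (adjusted p = 9.9e-04). Rsad2 stood at 2.36, 2.64 and 2.78 CPM in NC, 1.50, 1.22 and 1.41 CPM in HG, and 1.20, 0.899 and 1.31 CPM in HG-SIG, fell by 0.91 ± 0.19 (adjusted p = 0.00270) in HG and gave -0.27 ± 0.20 (adjusted p = 0.283) in the second step, where the libraries overlapped. Samhd1, which degrades deoxynucleotides and so restricts retroviruses, was the exception. It stood at 161, 162 and 161 CPM in NC, 181, 169 and 178 CPM in HG, and 148, 150.0 and 146 CPM in HG-SIG. HG lay above both other groups: Samhd1 rose by 0.13 ± 0.03 (adjusted p = 0.0153) in HG, a call lost without NC replicate 1 or HG replicate 1 (adjusted p = 0.0508 and 0.0616), and fell by 0.25 ± 0.03 (adjusted p = 7.5e-05) in HG-SIG against HG. This second call was lost with library size alone (-0.088, adjusted p = 0.0506) and with limma on log2(TPM + 1) (-0.043, 0.334). HG-SIG against NC was -0.12 (0.00937) with TMM but 0.07 with library size alone.

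Stat2, the transcription factor among the members and the partner of Irf9, stood at 30.5, 29.6 and 30.4 CPM in NC, 22.1, 20.9 and 25.1 CPM in HG, and 24.8, 23.0 and 21.7 CPM in HG-SIG. NC lay above both other groups, which overlapped. It fell by 0.41 ± 0.07 (adjusted p = 6.4e-04) in HG, and the second step was 0.03 ± 0.07 (adjusted p = 0.736), or 0.19 with library size alone (adjusted p = 0.0369). The second value was below 0 without HG replicate 2 or HG-SIG replicate 1 (-0.03 and -0.02).

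The other effectors all fell in HG (15.2% of all genes did), and 7 of 8 fell again in HG-SIG against HG (26.8% of all genes). Ifi44 stood at 109, 103 and 114 CPM in NC, 55.3, 49.4 and 58.8 CPM in HG, and 28.5, 29.5 and 29.4 CPM in HG-SIG, with log2 fold changes of -0.9997 ± 0.06 (adjusted p = 4.6e-08) and -0.90 ± 0.06 (adjusted p = 1.3e-07), nearly equal steps. Rtp4, a chaperone of receptors with antiviral activity, stood at 46.3, 49.9 and 48.6 CPM in NC, 31.6, 29.5 and 29.6 CPM in HG, and 13.3, 12.3 and 12.7 CPM in HG-SIG. Its first step of -0.67 ± 0.05 (adjusted p = 5.1e-07) was followed by a wider second one, -1.25 ± 0.06 (adjusted p = 2.3e-09). Xaf1, which antagonises the apoptosis inhibitor XIAP, stood at 20.1, 18.8 and 17.6 CPM in NC, 10.4, 8.16 and 9.46 CPM in HG, and 4.45, 4.75 and 5.10 CPM in HG-SIG and fell by 1.004 ± 0.09 (adjusted p = 3.2e-06) and then fell by 0.97 ± 0.10 (adjusted p = 7.5e-06). Trim30a, a mouse repressor of Toll-like receptor signalling, stood at 39.2, 38.4 and 39.7 CPM in NC, 20.7, 19.3 and 24.4 CPM in HG, and 17.8, 16.1 and 18.2 CPM in HG-SIG. It fell by 0.87 ± 0.08 (adjusted p = 2.1e-06) and then fell by 0.30 ± 0.08 (adjusted p = 0.00657). With library size alone its second step was -0.14 (adjusted p = 0.164). These 4 genes had no overlap between groups. Of all genes, 20.8% lay entirely lower in HG than in NC, and 28.8% entirely lower in HG-SIG than in HG.

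Among the remaining effectors the second step was small for all but Zbp1. Zbp1, a sensor of Z-form nucleic acids that can start necroptosis, fell by 1.37 ± 0.22 (adjusted p = 4.1e-04) and then fell by 1.06 ± 0.26 (adjusted p = 0.00483) from 222 counts in NC to 78 and 47. Eif2ak2, the kinase PKR that halts translation on sensing double-stranded RNA, went from 157 ± 1.80 to 104 ± 5.04 and 89.8 ± 2.22 CPM, with log2 fold changes of -0.60 ± 0.04 (adjusted p = 2.0e-07) and -0.21 ± 0.04 (adjusted p = 8.5e-04). Bst2, or tetherin, which holds budding virions at the cell surface, went from 52.8 ± 1.85 to 37.9 ± 2.58 and 32.7 ± 1.49 CPM (SD, n = 3), and fell by 0.47 ± 0.05 (adjusted p = 2.8e-05) and then fell by 0.22 ± 0.06 (adjusted p = 0.00561). With library size alone the second steps of both were near 0 (-0.05 with adjusted p = 0.329 and -0.06 with 0.393). Ifi35 fell by 0.62 ± 0.06 (adjusted p = 7.6e-06) in HG; its second step, -0.16 ± 0.06 (adjusted p = 0.0510), passed with the replicate number as a block (-0.16, adjusted p = 0.0443), with DESeq2 size factors (0.0408) and without HG replicate 3 or HG-SIG replicate 2 (0.0349 and 0.0194), and was 0.0017 with library size alone (adjusted p = 0.984). An antisense gene overlaps 16.8% of its exonic length.

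Levels were compared between members per transcript length, as TPM from counts and exonic lengths. Bst2 was the most abundant in NC, at 187 ± 6.27 TPM, followed by Oas1a at 161 ± 3.68 and Trim25 at 156 ± 3.06 TPM (SD, n = 3), of which the last 2 differed by about their spread. In HG the order began with Trim25 at 144 ± 11.8 and Bst2 at 137 ± 7.99 TPM, which did not differ beyond their spread. In HG-SIG Bst2 stood at 136 ± 4.73, Trim25 at 111 ± 9.46 and Oas1a at 72.8 ± 2.28 TPM. Isg15, in many cells among the most abundant effectors after interferon, stood at 39.5 ± 2.75 TPM in NC and 6.84 ± 1.19 TPM in HG-SIG.

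The rest of the interferon pathway was described from a list of 50 genes, of which 37 had a row and 35 were tested. In HG against NC 17 fell (48.6%, against 15.2% of all genes), 3 rose (8.57%, against 14.3%) and 15 were not called. In HG-SIG against HG 12 fell (34.3%, against 26.8%), 10 rose (28.6%, against 25.7%) and 13 were not called, shares near those of all genes. In HG-SIG against NC 18 fell (51.4%, against 28.7%), 10 rose (28.6%, against 29.9%) and 7 were not called. The medians were -0.17, 0.01 and -0.20, against 0.00, 0.01 and 0.02 over all genes. Of 14 interferon genes 1, Ifnab, had a row, with at most 1 count in a library (limit 0.0895 to 0.132 CPM); the other 13 had no row and were not analysed here. The interferon lambda receptor gene Ifnlr1 had at most 2 counts.

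Of 5 tested receptor genes 2 fell and 1 rose in HG (40% and 20%, against 15.2% and 14.3% of all genes), by small amounts. In HG-SIG against HG 4 fell and 1 rose (80% and 20%, against 26.8% and 25.7%). Il10rb gave -0.10 ± 0.05 (adjusted p = 0.136) in HG and -0.31 ± 0.05 (adjusted p = 1.7e-04) in HG-SIG against HG. Ifnar1 fell by 0.26 ± 0.03 (adjusted p = 1.1e-04) and then fell by 0.20 ± 0.04 (adjusted p = 4.0e-04). Ifnar2 rose by 0.26 ± 0.04 (adjusted p = 1.3e-04) in HG and then fell by 0.69 ± 0.04 (adjusted p = 9.6e-09). Ifngr2 fell by 0.27 ± 0.04 (adjusted p = 4.6e-04) and then fell by 0.34 ± 0.04 (adjusted p = 4.3e-05), while Ifngr1, the ligand-binding chain for interferon gamma, had 0.05 (0.520) and then rose by 0.35 ± 0.05 (adjusted p = 7.3e-05).

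Of 9 kinase and transcription factor genes 8 fell in HG (88.9%, against 15.2% of all genes). In HG-SIG against HG 4 fell, 3 rose and 2 were not called (44.4% fell and 33.3% rose, against 26.8% and 25.7% of all genes). Irf9, the DNA-binding subunit of ISGF3, fell by 0.41 ± 0.06 (adjusted p = 1.1e-04) and then fell by 0.41 ± 0.06 (adjusted p = 7.7e-05). Irf7, which amplifies type I interferon genes, fell by 1.15 ± 0.05 (adjusted p = 3.3e-09) and then fell by 0.39 ± 0.05 (adjusted p = 4.5e-05). Irf8, a macrophage lineage factor, gave -0.03 ± 0.06 (adjusted p = 0.700) in HG and fell by 0.88 ± 0.06 (adjusted p = 1.3e-07) with sitagliptin. Jak2 fell in HG (-0.44) and rose in HG-SIG against HG by 0.75 ± 0.05 (adjusted p = 5.7e-08), and Irf1, the early factor of the interferon gamma response, rose there by 0.37 ± 0.06 (adjusted p = 3.3e-04) after -0.19.

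Among 14 sensing adaptors and kinases, 5 fell and 1 rose in HG (35.7% and 7.14%, against 15.2% and 14.3% of all genes), and 3 fell and 5 rose in HG-SIG against HG (21.4% and 35.7%, near the 26.8% and 25.7% of all genes). Ikbke, a kinase that phosphorylates Irf3 and Irf7, went from 22.5 ± 2.08 to 8.68 ± 1.50 and 7.15 ± 0.717 CPM and fell by 1.38 ± 0.11 (adjusted p = 1.4e-06) in HG. The endosomal RNA receptor Tlr7 rose in HG (0.32) and fell in HG-SIG against HG (-1.19 ± 0.05, adjusted p = 9.4e-10), from 210.2 ± 12.7 to 91.9 ± 3.97 CPM. The double-stranded RNA receptor Tlr3 rose there by 0.72 ± 0.07 (adjusted p = 5.3e-06), Sting1, the adaptor for cytosolic DNA, by 0.57 ± 0.07 (adjusted p = 1.9e-05), and Mavs, the adaptor of RIG-I and MDA5, by 0.28 ± 0.04 (adjusted p = 9.7e-05). Ticam1, the adaptor of Tlr3, varied between replicates, with 0, 70 and 51 counts among NC libraries, 0, 0 and 23 among those of HG, 30, 0 and 6 among those of HG-SIG, and was not called. Of 7 inhibitors 2 fell and 1 rose in HG (28.6% and 14.3%, against 15.2% and 14.3% of all genes), where Socs3 fell by 1.58 ± 0.10 (adjusted p = 1.2e-07), and 1 fell and 1 rose in HG-SIG against HG (14.3% each, below the 26.8% and 25.7% of all genes), where the phosphatase gene Ptpn6 fell by 0.63 ± 0.04 (adjusted p = 1.3e-07).

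**Figure D5:**
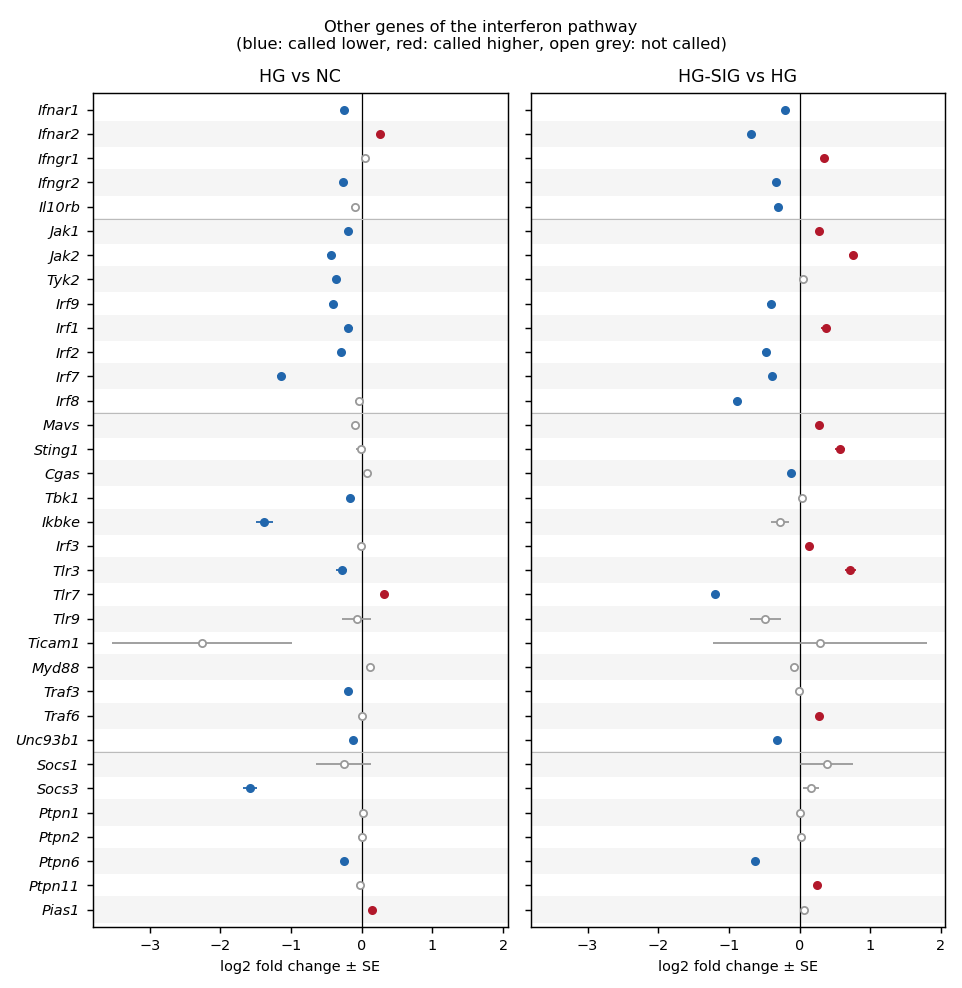
Log2 fold changes with standard errors of the tested genes of the rest of the interferon pathway, all but 1 of the 35, between HG and NC (left) and between HG-SIG and HG (right), ordered as receptors, kinases and transcription factors, sensing adaptors and kinases, and inhibitors; colours as for the members. Irf7, Ikbke and Socs3 lie below -1 and are called in the first comparison, as Tlr7 is in the second; Ticam1, with the widest error bars, is not called.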

How the data were processed

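The deposited table gave counts per gene and library, which the authors made with Bowtie2 2.3.5 and RSEM on mm10, per the submitters' processing notes; the sources used here give no annotation release, strand setting or filter. All values were whole numbers and were tested as they stood. Features with no annotated gene held 5.85% to 6.21% of each library and stayed in the tests. Groups and replicate numbers came from the sample titles, and the labels give 1 batch.

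Counts were filtered with filterByExpr by group (13311 features left), scaled with TMM and fitted in edgeR 4.0.16 (R 4.3.3) with 1 mean for each group across the 9 libraries together. The quasi-likelihood p-values of each of 3 comparisons were adjusted (Benjamini-Hochberg) across all features, never over the list. Standard errors were derived from each fold change and its F. Count ratios carry exact 95% (Clopper-Pearson) counting intervals. Coordinates and exonic lengths come from GENCODE M21, promoters from RefSeq (GRCm38.p6). Members, roles, motifs and the pathway list were chosen with earlier results of these data known; all 39 members are named, and values by library go to the sensors, Stat2 and every member whose average log2 CPM was at least 2 and that changed by over 1 on the log2 scale, besides some added after their values were seen. The pathway genes named were also chosen after their values were seen. A gene of the pathway list stayed in its counts and medians but is not reported here.

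Alternatives were library size alone, DESeq2 size factors, no filter, a filter at 10 CPM, DESeq2 1.42.0, limma 3.58.1 on log2(CPM + 1) and on log2(TPM + 1) (the series names limma on log2 TPM), 2 groups in the fit, the replicate number as a block, and each library left out. Deviations from group means correlated at 0.151 to 0.279 between same-numbered HG and HG-SIG libraries, against -0.172 to 0.0398 between unlike-numbered ones. For HG and NC the same-numbered pairs had 0.0816 to 0.179, against -0.151 to 0.0524. For HG-SIG and NC they had 0.0728 to 0.116, against -0.0752 to -0.00702. Same-numbered libraries were thus the more alike in every comparison, though the labels do not say that they were paired. The main fit took no pairing into account, and only the replicate block did.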

Additional observations from a re-analysis of the deposited data

How the results depend on the processing

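Of the recomputed counts and medians over members or pathway genes 20 moved and 196 stayed close to their main value (a count within 1.5 times, a median within the replicate spread of 0.079), and of the recomputed fold changes of single members 1931 kept direction and call, 47 lost their call, 23 gained one and 14 changed sign. The median member log2 fold change of HG against NC was -0.67 with the 10 CPM filter, -0.70 with limma on log2(CPM + 1) and -0.64 with limma on log2(TPM + 1). For HG-SIG against HG it was -0.29 with library size alone, -0.29 with the 10 CPM filter, -0.36 with log2(CPM + 1) and -0.21 with log2(TPM + 1), and for HG-SIG against NC -1.05, -1.15, -1.13 and -0.90. The stricter filter keeps fewer members and a pseudocount shrinks the changes of scarce genes; the other causes were not tested. Both library size alone and log2(TPM + 1) leave out the TMM factors. These were 0.948 to 0.954 in NC, 0.961 to 0.977 in HG and 1.08 to 1.09 in HG-SIG. Library size alone moved the median of all genes to 0.17 in HG-SIG against HG and 0.21 in HG-SIG against NC. With log2(TPM + 1) these medians were 0.19 and 0.23. Members that rose in HG-SIG against HG numbered 5 with library size alone and 6 with log2(TPM + 1). With these settings 6093 of 13311 and 6624 of 12109 genes rose. Members that rose in HG-SIG against NC numbered 0 in DESeq2 and 2 with log2(TPM + 1), where 3403 of 13311 and 7095 of 12109 genes rose. Leaving out each library in turn gave 33 to 36 members that fell and 0 to 1 that rose in HG against NC (medians -0.86 to -0.79), 27 to 29 and 2 to 4 in HG-SIG against HG (-0.48 to -0.42), and 34 to 35 and 0 to 1 in HG-SIG against NC (-1.29 to -1.22); pathway genes called numbered 18 to 21, 21 to 24 and 25 to 28. Signs changed for Dtx3l in HG-SIG against HG (0.13 with library size alone, 0.17 with log2(TPM + 1) and adjusted p = 0.0415, -0.0960 to 0.0219 on leaving out a library), Ifi35 (0.0017 and 0.0465 with those 2 scalings), Parp14 (0.0018 with log2(TPM + 1)), and on leaving out a library Gbp2 (-0.22 to 0.43) and Stat2 (-0.0253 to 0.11), and in HG-SIG against NC for Herc6 (0.11 and 0.12) and Samhd1 (0.0684 and 0.11, the latter called higher, adjusted p = 0.0184). With the replicate block, 36, 30 and 36 members fell in the 3 comparisons and 1, 3 and 1 rose; it added calls for Herc6 and Trim25 (HG against NC), Ifi35 (HG-SIG against HG) and Gbp7 (HG-SIG against NC) and changed no other call. Depth limits the members with under 100 counts in all of HG-SIG (Gbp2, Ifit1, Ifit3, Ifit3b, Mx1, Oasl2 and Zbp1). It also limits Gbp7, which had 81 counts in all of HG.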
